A study of Rattus norvegicus with 102 samples.

Results

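The CA1 subfield of the hippocampus was compared between aged rats that learned a water maze poorly (aged impaired, n = 12) and young rats (n = 10). The members are the 22 libraries, of 102 in the series, whose sample names give CA1 as the region and mark the rat as old and impaired or as young. The 12 CA1 libraries of aged rats that learned the maze well (aged unimpaired) are shown beside them but did not enter the comparison. All rats were males of the Fisher 344 strain with no treatment named in the labels, 5 to 6 months old in the young group and 17 to 22 months old in both aged groups, and each library was made from the CA1 of 1 rat. The same rats gave libraries of CA3 and the dentate gyrus (DG), the other hippocampal fields, and each sample has values in an Illumina table, an Ion Proton table and one marked WT. Impaired and young rats differ in age and in maze class at once, so these cannot be told apart in this comparison.

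CA1 holds the pyramidal neurons whose output leaves the hippocampus, and their calcium handling and synaptic plasticity are known to shift with age. Around them sit microglia, the resident macrophages of the brain, which carry complement, Fc receptors and a lysosomal system to clear debris, and which are known to become primed with age. MHC class II molecules, dimers of an alpha and a beta chain loaded with the help of the invariant chain Cd74, present peptides from that system to helper T cells and are sparse in the healthy brain. No library was made of CA2 or the subiculum, which border CA1.

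Values are normalised reads, the reads of a gene divided by the size factor of its library. Changes are impaired minus young on the scale of log2(normalised reads + 1), tested with limma in the Illumina table over 14168 genes with a mean of at least 10. A gene was called at a Benjamini-Hochberg adjusted p below 0.05. A gene was counted as retested, and is said here to have risen or fallen, when its unadjusted limma p was below 0.01 in the Illumina table and its one-sided p for that direction was below 0.05 in the Ion Proton table. The retest used the same rats, so it bears on the sequencing and not on the spread between animals.

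Illumina depth was 5.50 to 40.3 M reads (median 11.1) in impaired rats and 9.11 to 42.3 M reads (median 11.4) in young rats, a difference within the spread (permutation p = 0.45, two-sided, adjusted p = 0.75 over 5 depth measures). Depth was uneven, with 3 young and 2 impaired libraries above 25 M reads. Young rat R9780 was the deepest at 42.3 M reads. The rest had at most 14.1 M reads in impaired and 14.5 M in young rats. Mitochondrial genes took 12.4% to 20.5% of reads in impaired and 11.9% to 15.5% in young rats (permutation p = 0.378). Libraries of 3 rats stood apart and are named by rat number where they touch a result. Nearness to a subfield was the distance of a library's mean CA1, CA3 and DG marker scores from the averages of that subfield. By it impaired rat R9870 lay nearer to CA3 than to CA1 in both tables, though its CA3 markers were not raised. Its Illumina scores were 9.394 for CA1, 7.525 for CA3 and 7.309 for DG, the lowest DG score of the 22 libraries. Impaired rat R9872, nearest to CA1, scored 9.259 for CA1 and 8.141 for CA3. The summed choroid plexus markers of R9870 were 156833 normalised reads against 41.9 to 1767 in young rats and a median of 315 in impaired rats. Young rat R9780 had the highest young value in 48 of the 95 retested genes that rose, and impaired rat R9872 the highest impaired value in 42 of the 76 that fell. Impaired rat R9870 had the lowest impaired value in 27 of the 76 that fell. These counts cover retested genes only, and the same shares over all genes tested were not computed.

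Few genes passed adjustment over the whole table, and many small changes passed the retest. Ctsz, Skap2 and Cd6 were called higher, 0.0212% of the 14168 genes tested. No gene was called lower (0%), with 560 genes lower at an unadjusted p below 0.05, 0 called lower by edgeR and 2 by DESeq2. By the retest 95 genes rose (0.671% of genes tested) and 76 fell (0.536%), and 17 of these 171 had an adjusted p below 0.1. The changes were modest. The median log2 change was 0.40 among genes that rose and -0.36 among genes that fell, with 6 genes above 1 and 2 below -1. Over all genes tested the median change was -0.0013, and 49.4% of genes changed upward. For 0 genes (0%) did the 12 impaired and the 10 young values not overlap. In 45 of the 95 genes that rose, all 12 impaired rats lay above the young median, and in 27 of the 76 that fell, all 12 lay below it. These genes were chosen for a difference between the same libraries, so such counts are partly built in. The share over all genes tested was not computed.

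The MHC class II genes were among the largest rises. Of the 10 class II genes listed, 5 passed the filter on low values. All 5 changed upward, with a median log2 change of 1.64 in the Illumina and 1.49 in the Ion Proton table, and 4 of the 5 rose. RT1-DMa and RT1-DMb, the chains that exchange peptides, were listed at 0 in all 22 libraries, and RT1-DOa, RT1-DOb and Ciita, the class II transactivator, were under the filter. Reads of near-identical class II copies may have been split or shared between genes by the counting, so values of single RT1 genes are uncertain.

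Of the 4 class II genes that rose, 3 have an entry in the RefSeq promoter table (build GRCr8), and their promoters are printed because these genes moved together. Each runs from 250 bases before to 50 bases after the gene's start on the gene's own strand, and capitals mark CCAAT or its reverse complement ATTGG, the box bound by nuclear factor Y, a part of the class II promoter machinery. They lie at chr20:4560113-4560412 on the minus strand for RT1-Db1, at chr18:56526956-56527255 on the plus strand for Cd74 and at chr20:4515165-4515464 on the plus strand for RT1-Da.
RT1-Db1: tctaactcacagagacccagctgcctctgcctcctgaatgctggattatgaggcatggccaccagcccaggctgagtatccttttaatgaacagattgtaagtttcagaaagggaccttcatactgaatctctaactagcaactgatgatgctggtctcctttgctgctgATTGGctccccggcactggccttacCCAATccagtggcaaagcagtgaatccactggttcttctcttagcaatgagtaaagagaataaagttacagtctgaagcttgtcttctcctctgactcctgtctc
Cd74: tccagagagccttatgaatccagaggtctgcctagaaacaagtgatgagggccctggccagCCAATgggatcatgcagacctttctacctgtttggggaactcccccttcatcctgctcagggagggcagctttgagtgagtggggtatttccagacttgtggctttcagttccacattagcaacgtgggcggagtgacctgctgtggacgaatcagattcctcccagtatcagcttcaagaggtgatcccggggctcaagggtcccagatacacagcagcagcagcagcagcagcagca
RT1-Da: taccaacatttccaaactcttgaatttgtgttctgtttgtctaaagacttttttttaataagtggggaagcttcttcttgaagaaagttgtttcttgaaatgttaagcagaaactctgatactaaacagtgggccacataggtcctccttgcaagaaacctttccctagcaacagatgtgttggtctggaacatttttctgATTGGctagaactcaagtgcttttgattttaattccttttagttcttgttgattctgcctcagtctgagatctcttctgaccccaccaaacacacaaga
The RT1-Db1 promoter held 2 matches and those of Cd74 and RT1-Da 1 each. None of the 3 held the interferon-gamma activated site TTCNNNGAA, which reads the same on both strands in its fixed letters. Over all 33469 promoters of the table, 37.5% held CCAAT or ATTGG and 8.87% held TTCNNNGAA. A match is a description of these letters only.

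Cd74, the invariant chain, ranged from 63.9 to 925.5 normalised reads in young rats (median 94.99) and from 173.5 to 728.3 in impaired rats (median 418.5). All 12 impaired rats lay above the young median, but none exceeded young rat R9780, and the next highest young value was 287.5. The log2 change was 1.64 ± 0.35 (SE), a fold of 3.12, with a limma p of 0.000105 and an adjusted p of 0.083.

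RT1-Db1, a class II beta chain, ranged from 7.58 to 159.7 in young rats (median 12.2) and from 26.04 to 174.9 in impaired rats (median 55.1), a log2 change of 1.77 ± 0.42 (SE). RT1-Da, its alpha chain partner, ranged from 12.5 to 210.3 in young rats (median 21.9) and from 31.99 to 185 in impaired rats (median 95.4), a log2 change of 1.56 ± 0.40 (SE). LOC688090, counted here with the class II genes, ranged from 4.33 to 154 in young rats (median 13.3) and from 33.1 to 178.3 in impaired rats (median 72.8), a log2 change of 2.02 ± 0.42 (SE). Young rat R9780 was the highest young library for each of them, as for RT1-Ba, a class II alpha chain whose change of 1.58 in the Illumina table was 1.13 in the Ion Proton table (p = 0.12, two-sided) and did not pass the retest.

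Young rat R9780 decided the calls of this group. Its summed class II reads were 1660, against a young median of 169 and 306 to 1492 in impaired rats. Without it, all 5 class II genes were called by limma at an adjusted p below 0.05 and all 5 were retested, with a median log2 change of 1.96. Without impaired rats R9870 and R9872, 3 of the 5 were retested and the median was 1.53. In bulk tissue, more cells that carry class II and more RNA per cell cannot be told apart, here and for the gene groups that follow.

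**Figure D1:**
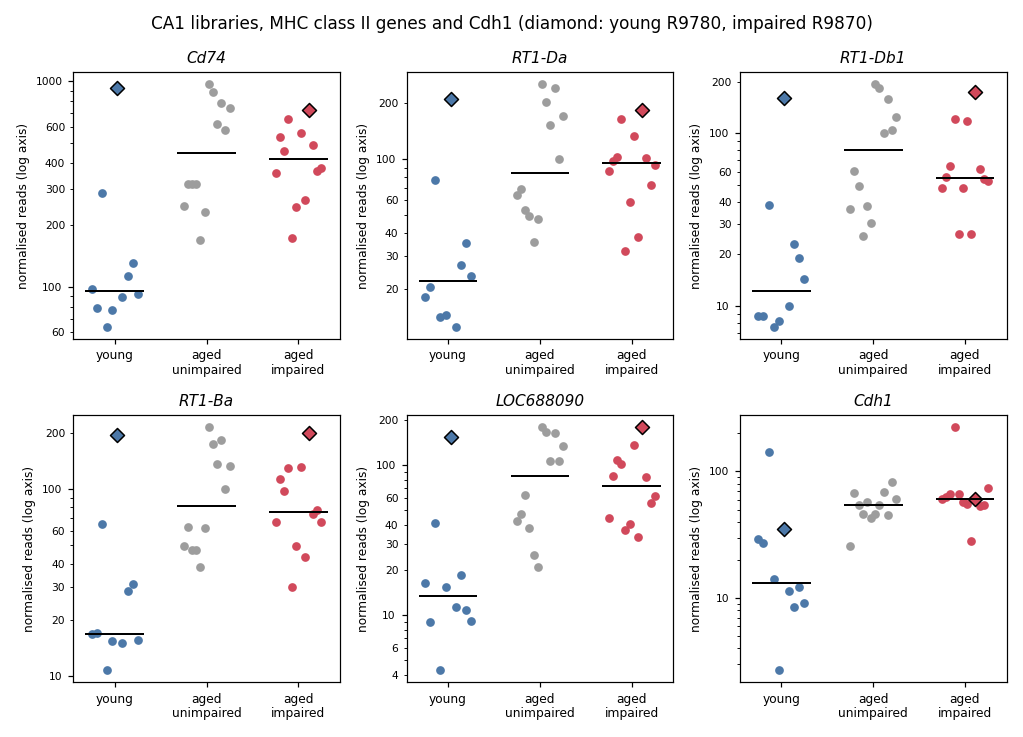
Normalised Illumina reads (log axis) of 5 MHC class II genes and Cdh1 in each CA1 library, with 1 point per rat, a line at the group median, and diamonds for young rat R9780 and impaired rat R9870. Most young points lie below the impaired median, but young rat R9780, at 925.5 reads of Cd74, is the highest young point for the class II genes and young rat R2175, at 141.3 reads, for Cdh1.

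The complement cascade tags debris and synapses for clearance. Of 17 complement genes tested, 6 rose and none fell, 16 changed upward, and the median log2 change was 0.29. C4a, the component that follows C1 in the cascade, ranged from 31.7 to 88.4 in young rats (median 55.0) and from 73.7 to 199.4 in impaired rats (median 98.7). Of the impaired rats 7 exceeded every young rat, and the log2 change was 0.88 ± 0.17 (SE), with an adjusted limma p of 0.0634. Its near-identical copy C4b rose by 0.85 ± 0.17 (SE) on the log2 scale, and reads of the pair may be shared. C3, on which all complement routes converge, ranged from 335.9 to 1476 in young rats (median 560.3) and from 716.5 to 1496 in impaired rats (median 1169), a log2 change of 0.76 ± 0.20 (SE). All 12 impaired rats lay above the young median of C3. The chains of C1q that start the cascade rose less, C1qa by 0.33 and C1qc by 0.29 on the log2 scale, and Itgb2, the shared beta chain of complement receptor 3, rose by 0.39.

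Microglial markers leaned upward in every member. All 26 markers tested changed upward, 7 rose and none fell, and the median log2 change was 0.22. Their summed level was 7098 to 9962 in young rats (median 8064) and 8043 to 11105 in impaired rats (median 9515). Spi1, the transcription factor that defines the lineage, rose by 0.33 on the log2 scale, and P2ry12, the ADP receptor of resting microglia, by 0.25. P2ry6, which senses UDP and triggers phagocytosis, rose by 0.39. Selplg, a selectin ligand, and Laptm5, a lysosomal membrane protein of leukocytes, rose by 0.23 and 0.25. These markers moved with the class II, complement and lysosomal genes, and their part in those results was not tested.

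Trem2, the lipid receptor of microglia, ranged from 136.7 to 296.4 in young rats (median 160.3) and from 188 to 316.2 in impaired rats (median 247.3). All 12 impaired rats lay above the young median, 1 lay above young rat R9780, and the log2 change was 0.47 ± 0.11 (SE). Its signalling partner Tyrobp rose by 0.45 ± 0.12 (SE). Fcgr2b, the inhibitory Fc receptor, rose by 0.62 ± 0.13 (SE), and Gpnmb, a glycoprotein of lipid-laden phagocytes, by 0.60 ± 0.15 (SE). Of the 15 Fc receptor and Trem2 pathway genes tested these 4 rose and 1 fell, with a median of 0.24. Trem2 and Tyrobp are also counted among the 7 microglial markers that rose. The gene that fell was Lpl, the lipoprotein lipase, by 0.41 ± 0.14 (SE), and neurons of the hippocampus express it as well.

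Ctsz, the lysosomal protease cathepsin Z, was the gene with the smallest p of the table. It ranged from 152.2 to 268.3 in young rats (median 183.9) and from 241.4 to 316.7 in impaired rats (median 284.4). Of the 12 impaired rats 9 exceeded every young rat, and the log2 change was 0.54 ± 0.08 (SE), with a limma p of 7.4e-07 and an adjusted p of 0.0105. Npc2, which hands cholesterol out of the lysosome, ranged from 1081 to 1967 in young rats (median 1267) and had a lowest value of 1379 and a median of 1773 in impaired rats, a log2 change of 0.44 ± 0.08 (SE). All 12 impaired rats lay above its young median, and 3 exceeded young rat R9780.

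Of 28 lysosomal genes tested, 8 rose and none fell, 27 changed upward, and the median was 0.15. Besides Ctsz, Npc2 and Laptm5, the proteases Ctss and Ctsd rose by 0.33 and 0.28 on the log2 scale and the hexosaminidase subunit Hexa by 0.23. The nuclease Pld4 rose by 0.36 and Grn, the progranulin precursor, by 0.18. Ctsz was called in all 22 fits that left out 1 library, but not without both impaired rats R9870 and R9872 (0.52, adjusted limma p = 0.0701) or within rats numbered from 9000 up (0.52, adjusted limma p = 0.999).

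**Figure D2:**
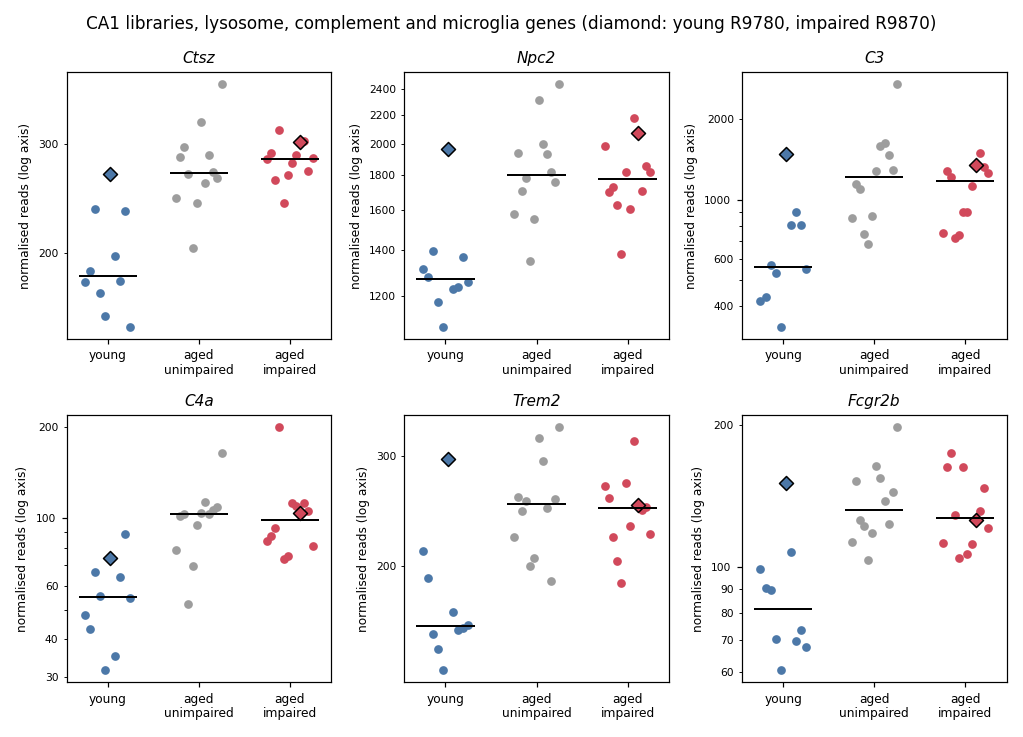
Normalised Illumina reads (log axis) of 6 lysosomal, complement and microglial genes in each CA1 library, with 1 point per rat, a line at the group median, and diamonds for young rat R9780 and impaired rat R9870. For Ctsz 9 of 12 impaired points lie above the young range of 152.2 to 268.3, and in the other panels young rat R9780 is the highest or second highest young point.

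The other genes called or ranked by smallest p belonged mostly to leukocytes. Cd6, a surface receptor known from lymphocytes, ranged from 25.9 to 45.3 in young rats (median 34.9) and from 44.7 to 74.1 in impaired rats (median 50.6). Of the 12 impaired rats 11 exceeded every young rat, and the log2 change was 0.59 ± 0.11 (SE), with an adjusted limma p of 0.0463. Skap2, an adaptor of integrin signalling in myeloid cells, changed by 0.39 ± 0.07 (SE) with an adjusted limma p of 0.0463, with 10 impaired rats above every young rat, but its change was 0.17 in the Ion Proton table (p = 0.205, two-sided) and it did not pass the retest. Cd6 and Skap2 were each called in 5 of the 22 fits that left out 1 library. Cd33, a sialic acid receptor of myeloid cells, rose by 0.45 ± 0.09 (SE).

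T cell markers gave little signal. Of 11 listed, 2 passed the filter. Cd4, the co-receptor of helper T cells that rat macrophages and microglia also carry, rose by 0.52 ± 0.16 (SE). Cd3e changed by -0.83 with a limma p of 0.119, and Cd3d and Cd3g, other chains of the T cell receptor complex, were listed at 0 in 11 and 15 of the 22 libraries and were under the filter. Tissue macrophage markers were tested for 6 genes, none of which passed the retest.

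Few genes of class I peptide presentation and of the interferon response passed the retest. All 15 MHC class I genes tested changed upward, with a median of 0.27. Of these Tap1, the peptide transporter of the class I route, rose by 0.34, while B2m, the class I light chain, changed by 0.27 in the Illumina and by 0.0070 in the Ion Proton table. Of 25 interferon response genes 23 changed upward in the Illumina table (median 0.14) and 15 in the Ion Proton table (median 0.060), and 1 rose, the immunity-related GTPase Igtp by 0.38. Oas1a, a sensor of double-stranded RNA, changed by 0.70 in the Illumina and by -0.0025 in the Ion Proton table.

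Other glial and vascular groups showed little that passed. Among 18 astrocyte markers 12 changed upward and 1 rose, the urea transporter Slc14a1 by 0.19. Gfap, the intermediate filament of astrocytes, ranged from 10348 to 21253 in young and from 12564 to 22956 in impaired rats, a change of 0.35 ± 0.13 (SE) that missed the threshold in the Illumina table (p = 0.0132). None of the 19 myelin, 13 oligodendrocyte precursor, 17 endothelial or 8 pericyte markers passed the retest, with medians of 0.042, -0.0068, 0.10 and 0.052. The myelin median covered opposite shifts. In rats numbered below 9000 all 19 myelin markers changed upward (median 0.24) and 4 rose. In rats from 9000 up 6 changed upward and 13 downward (median -0.077). Without young rat R9780, whose summed myelin markers were the highest of the young, 18 changed upward (median 0.11).

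Cdh1, E-cadherin, which joins epithelial and meningeal cells, rose by as much as the class II genes. It ranged from 2.72 to 141.3 in young rats (median 13.2) and from 28.1 to 223.3 in impaired rats (median 60.7), a log2 change of 1.84 ± 0.42 (SE) and a fold of 3.57. The highest young value was that of rat R2175 and the highest impaired value that of rat R2231, the same libraries that led the summed markers of the leptomeninges, at 7208 and 11607 normalised reads. The summed meningeal markers otherwise overlapped, with medians of 4044 in young and 3810 in impaired rats, and none of the 11 tested passed the retest. Their part in the Cdh1 result was not tested.

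Bpifb4, Bmp7 and Ngfr were the other large rises outside the complement genes. Bpifb4, a member of a secreted lipid-binding family, rose by 1.06 ± 0.22 (SE), from a young median of 17.8 to an impaired median of 43.2. Bmp7, a growth factor made in meninges and choroid plexus, rose by 0.87 ± 0.28 (SE), with its highest impaired value in rat R9870 at 368.3, and by 0.72 without rats R9870 and R9780. Ngfr, the low-affinity neurotrophin receptor, rose by 0.95 ± 0.29 (SE), with 9 impaired rats above every young rat and the other 3 below the young median.

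The genes that fell included several with roles in neuronal calcium sensing and glutamatergic synapses. Hpca, hippocalcin, the calcium sensor of pyramidal neurons, ranged from 14702 to 37439 in young rats (median 18156) and from 9509 to 24597 in impaired rats (median 16017). Of the impaired rats 10 lay below the young median, the ranges overlapped widely, and the log2 change was -0.48 ± 0.17 (SE), with an unadjusted limma p of 0.0083 and an adjusted p of 0.413. Without young rat R9780, which had its highest value, the change was -0.39 (unadjusted p = 0.0204). Impaired rat R9870 had the lowest Hpca value, and without both R9780 and R9870 the change was -0.32 (unadjusted limma p = 0.0363).

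Neto1, an auxiliary subunit of kainate and NMDA receptors, ranged from 838.1 to 1629 in young rats (median 1085) and from 570.2 to 1302 in impaired rats (median 914.5), and fell by 0.36 ± 0.13 (SE) on the log2 scale. Rem2, a GTPase that restrains voltage-gated calcium channels, ranged from 121.1 to 308.9 in young rats (median 153.7) and from 52.1 to 207.6 in impaired rats (median 116.1), and fell by 0.59 ± 0.20 (SE). Slc17a8, the vesicular glutamate transporter VGLUT3, ranged from 41.3 to 88.5 in young rats (median 60.1) and from 23.9 to 70.4 in impaired rats (median 36.4), and fell by 0.64 ± 0.18 (SE). For Slc17a8, 8 impaired rats lay below every young rat, 7 for Rem2 and 4 for Neto1, and impaired rat R9872 had the highest impaired value for each. Without young rat R9780, the highest young library for Neto1 and Rem2, their changes were -0.31 and -0.50 and neither passed (unadjusted limma p = 0.0209 and 0.0173). Impaired rat R9870 was the lowest impaired library for both genes. Without R9780 and R9870 their changes were -0.25 and -0.40 (unadjusted limma p = 0.0357 and 0.0262). Smaller falls on the log2 scale were those of Prickle2, a planar polarity protein of the postsynapse, by 0.27, of the microtubule-binding kinase Dclk2 by 0.26 and of Arpc5, a subunit of the actin-branching complex, by 0.27.

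Most members of the neuronal calcium and synapse lists did not pass the retest. Of 26 calcium sensors and effectors 1 fell, Hpca, and 16 changed downward, with a median of -0.070. Of 20 NMDA and AMPA receptor genes 1 fell, Neto1, and 14 changed downward (median -0.077). None of the 15 voltage-gated calcium channel genes, 21 calcium store genes or 19 postsynaptic density genes passed the retest, though 12, 15 and 17 changed downward, with medians of -0.094, -0.070 and -0.11. The members with the smallest p were Cacnb2, a calcium channel beta subunit, at -0.22 (p = 0.0123), Ryr3, a calcium release channel, at -0.26 (p = 0.0201), and the scaffold Homer3 at -0.44 (p = 0.0181), all unadjusted limma p-values. Shisa6, an AMPA receptor partner, changed by -0.44 (p = 0.044, unadjusted limma).

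Immediate early genes, which neurons switch on with activity, were lower in most members. Of 23 tested, 19 changed downward and 2 fell, with a median of -0.16. Per1, also a clock gene and a target of glucocorticoids, fell by 0.23 and Dusp6, a phosphatase that ends ERK signalling, by 0.31. Per1 was the only member of the 17 clock genes and of the 14 glucocorticoid targets to pass the retest.

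**Figure D3:**
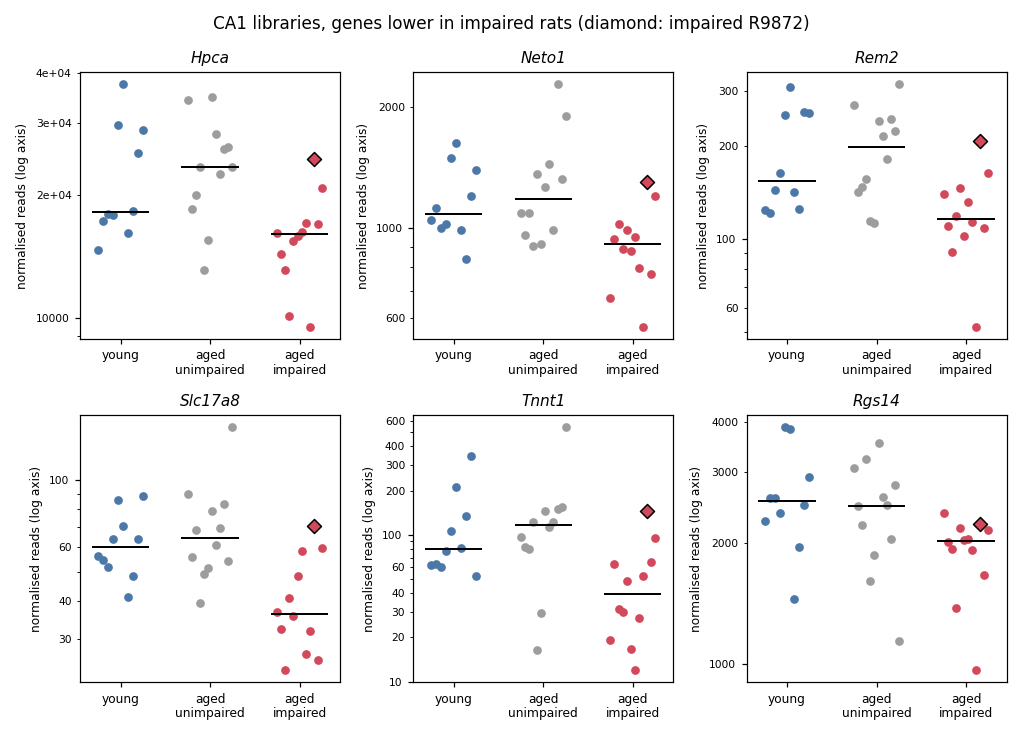
Normalised Illumina reads (log axis) of 6 genes that fell in impaired CA1, with 1 point per rat, a line at the group median, and a diamond for impaired rat R9872. Impaired medians are the lowest of the 3 groups in every panel, for example 36.4 reads of Slc17a8 against 60.1 in young and 64.6 in unimpaired rats, and impaired rat R9872 lies at or near the top of its group.

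The largest falls were in genes of other kinds. Tnnt1, the slow muscle troponin T, ranged from 52.0 to 341.5 in young rats (median 79.7) and from 12.1 to 145.5 in impaired rats (median 39.8). Of the impaired rats 7 lay below every young rat, and the gene fell by 1.28 ± 0.38 (SE) on the log2 scale, to a fold of 0.411. Ccdc27, a coiled-coil protein, fell by 1.36 ± 0.47 (SE), from a young median of 59.6 to an impaired median of 15.7.

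Ccdc153, found in ciliated cells, fell by 0.99 ± 0.34 (SE), and Prc1, which bundles microtubules in dividing cells, by 0.88 ± 0.29 (SE). Of the 9 markers of ciliated ependyma tested 8 changed downward, with a median of -0.94, and Ccdc153 was the only one that passed the retest. Without impaired rats R9870 and R9872, 5 of the 9 fell, and without young rat R9780 none did, with Ccdc153 at -0.88 (unadjusted limma p = 0.0177). The summed ependymal markers were 883.9 to 2426 in young rats (median 1733) and 922.1 to 1863 in impaired rats (median 1425). The ependymal list moved with the Ccdc153 result, and the share of ventricular lining in each dissection was not tested.

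The rest of the 10 largest falls beside Slc17a8 were of mixed kinds. Sema3c, an axon guidance ligand, fell by 0.77 ± 0.21 (SE), with 8 impaired rats below every young rat. Il16, the precursor of a chemoattractant, fell by 0.75 ± 0.25 (SE), and Kcp, a modulator of BMP signalling, by 0.71 ± 0.22 (SE). Cxcr1, a chemokine receptor, fell by 0.71 ± 0.22 (SE), and Hpgd, the enzyme that inactivates prostaglandins, by 0.70 ± 0.21 (SE). All 12 impaired rats lay below the young median for Kcp and Cxcr1. Col11a1, a fibrillar collagen chain, fell by 0.58 ± 0.18 (SE), alone among 21 collagen genes, and the chaperone partner Dnajb5 fell by 0.20, alone among 19 heat shock genes.

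Markers of the neighbouring tissue moved beside these genes. The 7 CA1 markers tested had a median change of -0.042, and none passed the retest. Wfs1, which defines CA1 pyramidal neurons, ranged from 4355 to 10832 in young rats (median 6521) and from 2895 to 6387 in impaired rats (median 5447), a change of -0.33 (p = 0.0328, unadjusted limma), so the labelled tissue was present in both groups. All 6 CA2 markers changed downward with a median of -0.30, and Rgs14, a regulator of G protein signalling that defines CA2, fell by 0.45 ± 0.15 (SE), with all 12 impaired rats below the young median of 2536. Rgs14 did not pass without young rat R9780 (-0.38, unadjusted limma p = 0.0195) or without impaired rats R9870 and R9872 (-0.38, p = 0.0115). All 6 CA3 markers changed downward (median -0.17) and none passed the retest. The summed CA2 markers were 3631 to 7645 in young and 2647 to 6592 in impaired rats, and the summed CA3 markers 2225 to 5310 and 1798 to 5403. The part of the CA1, CA2 and CA3 shares of the dissection in the falls of neuronal genes was not tested.

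Deep cortical and striatal markers leaned upward. Of 10 deep cortical markers 9 changed upward and Ctgf, a matricellular protein made in the deepest layer, rose by 0.54. All 8 striatal markers changed upward and Rgs9, a regulator enriched in striatum, rose by 0.50. The 7 subicular, 10 thalamic and 9 choroid plexus markers had medians of 0.14, 0.23 and 0.74, with none retested, and the choroid plexus median was -0.020 over 8 markers without impaired rats R9870 and R9872. All 4 blood genes changed upward with a median of 0.56, and none passed the retest. Prl, the pituitary hormone prolactin, was listed at 0 in 14 of the 22 libraries and reached 120.7 normalised reads in impaired rat R2231.

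**Figure D4:**
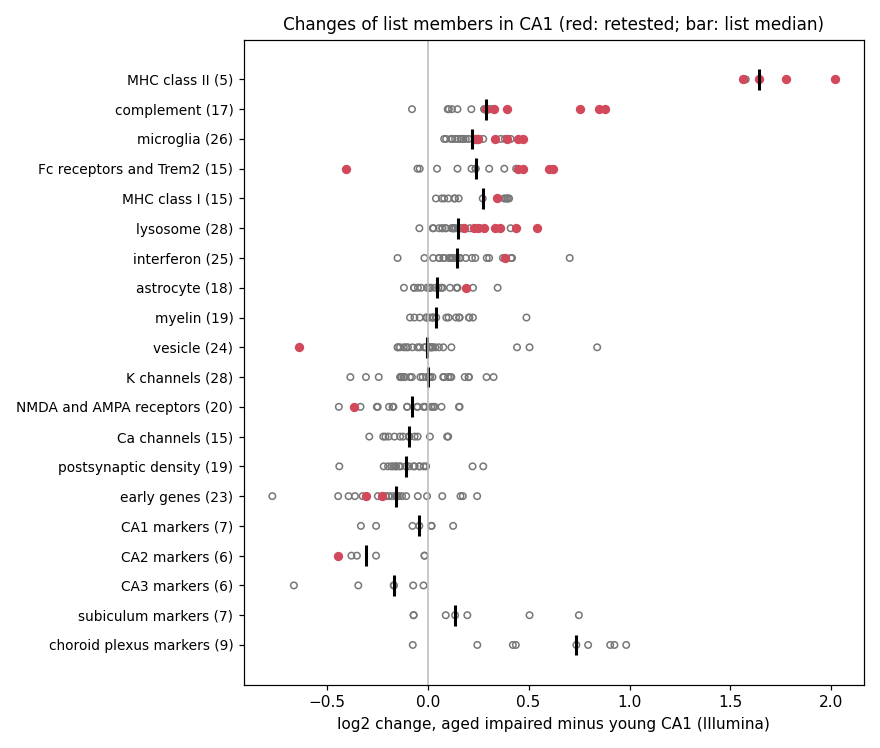
Log2 changes, impaired minus young, of the members of 20 lists in CA1 (Illumina), with 1 point per gene tested, red where the gene was retested, a bar at the list median and the number of genes tested in parentheses. The 5 MHC class II genes lie apart at 1.56 to 2.02, complement, microglial and lysosomal genes lie mostly right of 0, and postsynaptic, early gene, CA2 and CA3 lists lie mostly left of it.

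The remaining lists held few retested genes. None of the 28 potassium channel, 16 interneuron, 13 GABA-A receptor, 13 newborn neuron, 22 cholesterol synthesis, 29 oxidative phosphorylation or 25 ribosomal genes passed, and their medians lay between -0.077 and 0.068. Of 28 calcium, synaptic and excitability genes that the study set out for maze class in CA1, 7 fell and 24 changed downward (median -0.26). Of 25 genes that it listed for age in all 3 subfields, 18 rose and 24 changed upward (median 0.44). Each list is a part of the genes that the study reported from these same samples. Both lists were chosen on these rats and are not independent evidence of a direction. Of the 28, 2 fell without young rat R9780 and 11 without impaired rats R9870 and R9872. Among the genes tied to age, Cdh23, an adhesion cadherin, rose by 0.61, the fatty acid receptor Gpr84 by 0.55, the oxidase subunit Ncf1 by 0.41 and the protocadherin Pcdhb4 by 0.34.

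The aged unimpaired rats give a reference of the same age. No gene was called between impaired and unimpaired CA1 by limma (0% of 14205 genes, with 811 genes, 5.71%, at an unadjusted p below 0.05), 0 by edgeR and 6 by DESeq2. The comparison shares the impaired libraries with that against young rats. Unimpaired rat R9869 lay nearer to DG than to CA1 by subfield markers in both tables, and it had the highest unimpaired value of Tnnt1 (539.5), Slc17a8 (148.3) and Rgs9 (2675). Without R9869 and R9870 no gene was called either, with 870 at an unadjusted limma p below 0.05. For several genes that rose, the aged medians lay side by side. Cd74 had a median of 449.9 in unimpaired and 418.5 in impaired rats, a change of -0.14 between them, Ctsz medians of 269.6 and 284.4 (0.041), C4a medians of 103.3 and 98.7 (0.041) and Trem2 medians of 250.8 and 247.3 (-0.037). They lay further apart for RT1-Db1, at 80.4 in unimpaired and 55.1 in impaired rats, and for Rgs9, at 93.6 in unimpaired and 155.5 in impaired rats against 114.3 in young rats.

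For Hpca, Slc17a8, Rem2, Neto1 and Tnnt1 the unimpaired medians lay above the young ones. Hpca had a median of 23448 in unimpaired rats, and the impaired minus unimpaired change was -0.58 (unadjusted limma p = 0.000888). Slc17a8 had a median of 64.6 and a change of -0.77 (p = 0.000494), Tnnt1 a median of 117.1 and a change of -1.31 (p = 0.00543), and Rem2 a median of 198.2 and a change of -0.66 (p = 0.00149), all unadjusted limma p-values. Neto1 changed by -0.47 (unadjusted limma p = 0.00298). Hpca, Slc17a8, Rem2 and Neto1 are among the genes that the study tied to maze class on these same rats. Their changes between the aged groups are therefore not independent evidence. Without R9869 and R9870 these changes were -0.52 for Hpca, -0.64 for Slc17a8, -1.13 for Tnnt1, -0.49 for Rem2 and -0.36 for Neto1. Col11a1 had medians of 185.7 in unimpaired and 183.8 in impaired rats, while Ccdc27, Cxcr1 and Il16 were among the genes that fell with higher medians in unimpaired rats, at 41.9 against 15.7, 51.2 against 31.8 and 306.5 against 238.5.

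The same rats' CA3 and DG were compared for each gene's impaired minus young change. With an interaction term over 66 libraries, limma called no gene for CA1 against CA3 (0% of 14186 genes, with 395, 2.78%, at an unadjusted p below 0.05) and none for CA1 against DG (0%, with 92, 0.649%). With edgeR 4 genes were called against CA3 and 0 against DG. They included F5, Aqp1 and Tmem72, and their interaction log2 values were 5.67 to 7.46. None of them passed the CA1 retest, and Aqp1, a water channel of choroid plexus, had its highest CA1 value in impaired rat R9870, at 1083 normalised reads against a median of 12.3. Within the subfields themselves limma called 0 genes in CA3, with 350 at an unadjusted p below 0.05, and 14 genes higher in DG. By subfield markers in both tables, 3 impaired and 2 young libraries labelled CA3, 1 impaired library labelled DG and impaired CA1 library R9870 lay nearer to another subfield than to their own, and the CA3 library of R9870 lay nearest to CA1. Without these 7 libraries limma called 0 interactions with CA3 (336 at an unadjusted p below 0.05), 0 with DG (128), 0 genes in CA3 (414) and 9 genes higher in DG.

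Class II genes changed upward in all 3 subfields. In the order CA1, CA3, DG the list median was 1.64, 1.86 and 2.25, and Cd74 changed by 1.64, 1.74 and 1.88. Ctsz changed by 0.54, 0.46 and 0.53, and C4b by 0.85, 1.00 and 1.02. Genes that fell in CA1 differed in their values elsewhere. In the same order Hpca changed by -0.48, -0.014 and -0.012, with interaction p-values of 0.157 and 0.155, and Slc17a8 by -0.64, -0.011 and -0.082, with interaction p-values of 0.0706 and 0.108 (limma, unadjusted). Neto1 changed by -0.36, 0.15 and 0.051, Arpc5 by -0.27, -0.15 and -0.070, and Per1 by -0.23, -0.22 and -0.12. The smallest unadjusted interaction p among the named genes was 0.00696 for Kcp, which changed by -0.71 in CA1 and 0.20 in CA3. None of these interactions passed adjustment, and their p-values come from the fit without the rat as a block. Without the libraries nearer to another subfield, an alternative added after seeing the data, Hpca changed by 0.068 in CA3 and -0.090 in DG, Slc17a8 by 0.0072 and -0.11, and Cd74 by 1.88 and 1.74.

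Single libraries moved the counts. With 1 library left out in turn, 1 to 46 genes were called higher and 0 to 1 lower, 61 to 133 rose and 43 to 134 fell, and 80 of the 171 retested genes were retested in all 22 fits. The 46 genes called without young rat R9780 included all 5 class II genes, 5 complement genes and 6 lysosomal genes. Without young rat R2175, 15 genes were called higher, and without impaired rat R2233, 7. Without impaired rat R9870, which lay nearer to CA3, 4 genes were called higher, 72 rose and 65 fell. Of the 171 retested genes 118 were also retested without R9870. Without young rat R2221, which had the lowest young value in 36 of the 95 genes that rose, 61 genes rose and 43 fell. Without impaired rat R9872, 134 genes fell, and without R9780, 50. Without both impaired rats R9870 and R9872, 4 complement, 4 microglial and 7 lysosomal genes rose.

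Rat numbers fall into a series below 9000 (7 impaired, 5 young) and one from 9000 up (5 impaired, 5 young), and the labels do not say what the series stand for. The study's methods name testing sites in Arizona and Florida, but the labels do not link rat numbers to a site. Within the lower series 154 genes rose and 66 fell, with class II at a median of 1.93. Within the upper series 20 rose and 9 fell, and class II had a median of 1.24 with none of its genes retested, beside 1 complement, 1 microglial and 2 lysosomal genes that rose. Cd74 changed by 1.93 and 1.37 within them, C4a by 1.02 and 0.74, Ctsz by 0.58 and 0.52, Hpca by -0.41 and -0.51 and Slc17a8 by -0.67 and -0.60. The direction of these 5 genes was thus the same within both series. That of the myelin list was not, with medians of 0.24 and -0.077.

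**Figure D5:**
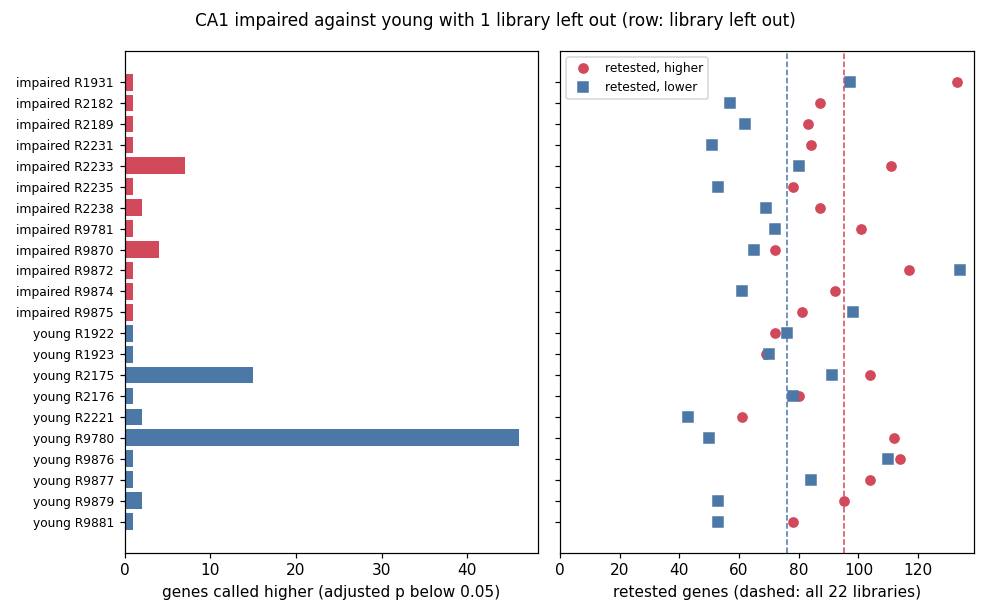
Number of genes called higher (left, adjusted p below 0.05) and number of retested genes higher and lower (right) when the library named in each row was left out, with dashed lines at the 95 and 76 genes of all 22 libraries. Leaving out young rat R9780 gives 46 genes called higher, and the retested counts range from 61 to 133 higher and from 43 to 134 lower.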

How the data were processed

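Per the study's methods and the submitters' processing notes, Illumina reads (poly-A libraries, 50 bp pairs) were trimmed with CutAdapt 1.8.3, aligned to rn5 with STAR 2.5 and counted with featureCounts 1.4.4, and Ion Proton reads were aligned with TopHat2 and Bowtie2. The library type and aligner of the WT table are not given in the sources used here. The labels and the methods name different Illumina kits, of which 1 keeps strand, so reads of a gene and of an overlapping or antisense partner cannot be told apart. The deposited values are a signal per gene, read counts divided by a DESeq2 size factor by the authors (26284 genes in the Illumina and WT tables, 26341 in the Ion Proton table, 48 without a symbol in each). Whole reads were recovered from them for 100.0% of values above 0, within 0.01 reads, and all 37 mitochondrial genes were at 0 in the Ion Proton table.

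Groups were taken from the sample names. Values were tested as log2(value + 1) with limma 3.58.1 (trend) in R 4.3.3, leaving out genes whose mean over the fitted libraries was under 10, with Benjamini-Hochberg adjustment. Recovered reads were tested with edgeR 4.0.16 and DESeq2 1.42.0 as alternatives. The limma, edgeR and DESeq2 fits of the main comparison were tested on simulated data. Gene lists (50 lists, 798 symbols, 773 matched), the members and the tests were chosen with earlier results of these data known. Named genes are the 10 largest retested changes in each direction, retested list members (otherwise the 2 members with the smallest p), the 5 smallest p and defining markers; genes named beyond this rule were chosen after their values were seen. A few genes that the rule names are not reported here. Where a symbol had 2 identifiers, the one with the higher mean was used. Library pairs correlated at 0.98 to 0.997 and 0 pairs were identical.

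CA1, CA3 and DG libraries of a rat are paired, since the sample names give the rat. Over 22 rats the deviations from group means of CA1 correlated with those of CA3 at a median of 0.0687 (-0.251 to 0.644) and with those of DG at 0.211 (-0.388 to 0.541). With the rat as a replicate block, 0 genes were called for either interaction. Impaired and young rats are different animals and share no number. Permutation tests of depth used 100000 resamples. Reads carry no molecular identifiers, and p-values measure the spread between rats of these groups.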

Additional observations from a re-analysis of the deposited data

Results flagged for a closer look

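In the 10 young CA1 libraries, 81 named genes were screened for 1 value far from the rest, measured as its gap to the nearest other library over the whole young range. For normally distributed values, chance gives such a value in about 1 of 20 groups. The screen used normalised reads and not their log2, so this rate may not hold here. It found 19, 15 of them in young rat R9780 and 4 in young rat R2175, all of them high values except that of Per1. The 81 genes are not independent of each other.

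In young rat R9780 the highest young value stood off by 0.796 of the range for RT1-Db1, 0.755 for LOC688090, 0.74 for Cd74, 0.705 for RT1-Ba and 0.672 for RT1-Da, the 5 class II genes tested. In the same library the gap was 0.695 for Bpifb4, 0.648 for the lysosomal Npc2, 0.526 for Ctsd, 0.486 for Ctss and 0.467 for Laptm5. For complement it was 0.619 for C1qa and 0.507 for C3, and for microglial receptors 0.534 for Trem2, 0.488 for Cd4 and 0.477 for Fcgr2b. Its value of Cd74 was 925.5 normalised reads against 287.5 in the next young rat.

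In young rat R2175 the highest young value stood off by 0.766 for Cdh1, 0.657 for Bmp7 and 0.582 for the water channel Aqp1, and the lowest by 0.467 for Per1. That library also had the highest young sum of leptomeningeal markers, 7208 normalised reads against a young median of 4044.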

How the results depend on the processing

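Genes called higher, 3 with all libraries, numbered 1 with no filter on low values, 1 with quantile normalisation, 1 with edgeR, 18 with DESeq2, 12 with the number series as a covariate, 17 in rats numbered below 9000, 0 in rats from 9000 up, 23 without the 5 most deeply sequenced rats, 17 with the unimpaired rats in the fit and 0 in the Ion Proton table. Genes called lower, 0 with all libraries, numbered 2 with DESeq2, 2 below 9000 and 1 without the deepest rats. Retested genes that rose, 95 with all libraries, numbered 154 below 9000, 20 from 9000 up and 62 with the unimpaired rats in the fit, and those that fell, 76 with all libraries, 9 from 9000 up and 44 without the deepest rats. Of the 171 retested genes, 75 were retested below 9000, 18 from 9000 up, 146 with edgeR and 154 with DESeq2. With 1 library left out, 1 to 46 genes were called higher, 0 to 1 lower, 61 to 133 rose and 43 to 134 fell. In alternatives chosen after seeing the data, leaving out young rat R9780 and impaired rat R9870 gave 55 called higher, 1 called lower and 38 that fell, and leaving out impaired rats R9870 and R9872 gave 0 called higher and 122 that fell. The interaction with CA3 had 4 calls with edgeR, and impaired against unimpaired rats 6 with DESeq2. Oas1a changed sign in the Ion Proton table (-0.0025), and the depth difference of the WT table, 0.245 M reads, was -0.672 without the deepest rats. The median of the calcium sensors was -0.011 without libraries nearer to another subfield. The causes were not tested, and each number series also held fewer rats. With the rat as a replicate block, 0 interactions were called, and the block changed no call.

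Over 81 named genes, 1286 values under other settings kept their direction and side of the threshold in 986 cases, lost the threshold in 279, gained it in 20 and changed sign in 1. Depth limits the lowest genes, and 1 library per rat leaves dissection and rat inseparable.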

Other observations

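The following retested genes were in no list and were picked after their values were seen. Among those that rose on the log2 scale were Gipr, the receptor of an incretin hormone, by 0.80 ± 0.17 (SE), Lilrb3l, a leukocyte inhibitory receptor, by 0.65 and Emr1, the macrophage marker F4/80, by 0.39. Arl11, a small GTPase of macrophages, rose by 0.66, and the nucleases Rnaset2 and Dnase2, both known from lysosomes, by 0.40 and 0.31. Sema3b, a secreted semaphorin, rose by 0.63, while Sema3c of the same family fell.

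Among those that fell, Adamts3, a protease that trims procollagen, fell by 0.59, Wnt2, a secreted Wnt ligand, by 0.47 and the axon guidance receptor Robo1 by 0.30. Dusp5, a phosphatase of nuclear ERK, fell by 0.56, Fosl1, an AP-1 subunit, by 0.36 and Rasd1, a GTPase induced by dexamethasone, by 0.46. Rerg, a Ras-like growth inhibitor, fell by 0.59 and the orphan receptor Gpr12 by 0.51. The adjusted limma p of these genes ranged from 0.0816 for Lilrb3l and Gipr to 0.359 for Rasd1, so none was called.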
